A study of Mus musculus with 16 samples.

Results

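The AP-1 family immediate-early genes measured here are Fos, Fosb, Fosl2, Jun, Junb and Atf3. They were taken as the array features annotated to those 6 symbols, 1 feature each, out of 19572 features that name 19505 genes. Olfactory mucosa of C57BL/6 mice carrying S100a5-tauGFP was dissociated and sorted by GFP fluorescence, and RNA of each sorted fraction was hybridised to a Clariom S array, which reports 1 value per transcript cluster. S100a5-tauGFP is a reporter in which S100a5, a gene of olfactory sensory neurons that follows their activity, drives a GFP fused to tau, so the sort rests on the activity of 1 promoter. The 24 mice, of both sexes and 7 to 12 weeks old, were kept singly under clean air flowing at 3.1 L per min for 40 h. From 26 h on they received pulses of 10 s every 20 min.

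The 4 groups had 4 arrays each. They were odor-stimulated cells titled GFP−, odor-stimulated cells titled GFP+, vehicle cells titled GFP− and vehicle cells titled GFP+. The odor was a mixture of undecanal and bourgeonal, both aldehydes, and the vehicle was filtered air. Each of the 8 pools, 4 per treatment, came from 3 mice and gave both fractions. The cell type entry of the labels states the opposite GFP status to the title on 16 of 16 arrays, so the fractions are called by title throughout. S100a5 itself was higher in cells titled GFP− than in cells titled GFP+ in 8 of 8 pools, by 0.71 to 2.43 on the log2 scale, which goes against the titles. Every direction between fractions below is therefore one between titles.

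AP-1 is a dimeric transcription factor. Fos proteins pair with Jun proteins through a leucine zipper, Jun proteins can also pair among themselves, and Atf3 pairs with Jun proteins or with itself. Most of these genes are transcribed within minutes of a stimulus from factors already present in the cell, among them CREB at cyclic AMP response elements and serum response factor at CArG boxes, and their messages are short-lived. Neuronal firing, growth factors, stress and the handling of tissue all induce them, and in the olfactory epithelium they are used as markers of recent activity and of injury.

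The promoters are shown because the named inducers act there and because the members differed widely in how far the fractions stood apart. RefSeq promoter windows of 250 bases before and 50 bases after the start were found for 6 of 6 members (assembly GRCm38.p6, mouse). Capitals mark TGACG, the first bases of the cyclic AMP response element TGACGTCA, or its complement CGTCA. The Fos window is on the plus strand at chr12:85473640-85473939, and the Fosb window on the minus strand at chr7:19309996-19310295. The Junb window is on the minus strand at chr8:84978699-84978998, the Atf3 window on the minus strand at chr1:191183284-191183583, and the Jun window on the minus strand at chr4:95052173-95052472. Each is written 5′ to 3′ on the gene's strand.
Fos: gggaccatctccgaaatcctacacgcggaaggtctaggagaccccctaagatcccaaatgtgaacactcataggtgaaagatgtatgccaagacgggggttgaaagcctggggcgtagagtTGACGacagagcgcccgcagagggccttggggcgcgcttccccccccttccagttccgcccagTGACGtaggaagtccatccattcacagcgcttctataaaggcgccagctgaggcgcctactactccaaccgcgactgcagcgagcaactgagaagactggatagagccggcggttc
Fosb: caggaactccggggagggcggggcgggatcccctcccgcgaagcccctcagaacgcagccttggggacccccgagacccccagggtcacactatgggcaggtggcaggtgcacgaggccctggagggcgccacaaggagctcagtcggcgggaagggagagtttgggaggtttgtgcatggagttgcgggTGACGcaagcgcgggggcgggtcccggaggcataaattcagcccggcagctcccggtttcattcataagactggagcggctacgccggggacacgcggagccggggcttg
Junb: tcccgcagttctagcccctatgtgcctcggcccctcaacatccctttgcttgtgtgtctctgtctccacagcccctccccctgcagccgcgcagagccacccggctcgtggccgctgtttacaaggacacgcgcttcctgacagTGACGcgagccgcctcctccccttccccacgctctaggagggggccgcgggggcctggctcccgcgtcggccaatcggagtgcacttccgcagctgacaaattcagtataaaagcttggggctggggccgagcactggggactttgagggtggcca
Atf3: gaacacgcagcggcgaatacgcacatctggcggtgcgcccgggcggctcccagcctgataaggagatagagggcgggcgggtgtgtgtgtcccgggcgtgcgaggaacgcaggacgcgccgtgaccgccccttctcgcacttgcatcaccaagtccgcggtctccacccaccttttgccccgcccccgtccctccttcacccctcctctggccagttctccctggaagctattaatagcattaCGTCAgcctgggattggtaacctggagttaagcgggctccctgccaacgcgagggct
Jun: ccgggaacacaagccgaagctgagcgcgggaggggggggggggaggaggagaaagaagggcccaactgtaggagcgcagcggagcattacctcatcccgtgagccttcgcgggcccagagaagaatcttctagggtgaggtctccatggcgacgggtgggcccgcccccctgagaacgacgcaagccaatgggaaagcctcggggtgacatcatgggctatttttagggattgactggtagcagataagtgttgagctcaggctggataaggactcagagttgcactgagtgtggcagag

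TGACG, searched on both strands, was found in 4 of the 6 windows, and in 20.8% of the 32851 RefSeq promoter windows of that length. In Fos it began 129 and 66 bases before the start, in Fosb 60 bases before and in Junb 106 bases before. In Atf3 it lay on the other strand, with its leftmost base 7 bases before the start. Jun and Fosl2 held none. The full palindrome TGACGTCA, which contains TGACG, was in 0 of 6 windows and in 1.79% of all windows. The AP-1 site TGANTCA was in 0 of 6 and in 7.81% of all, and the CArG box in 0 of 6 and in 1.63% of all. The windows of the members were 58.7% to 68.3% G and C, against a median of 52.7% over all windows. These matches describe letters in a 300-base window only.

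Values below are the deposited log2 signals, on which a step of 1 is a doubling, and no gene's level is set against another's, since probes differ in brightness. An array's background was taken as the 95th percentile of its 23 GC-graded background probe sets, 6.87 to 7.41 over the 16 arrays. Differences between fractions are titled GFP− minus titled GFP+, and were tested with limma's moderated two-sided test over all 19572 features with Benjamini-Hochberg adjustment at 0.05. Unless a block is named, the p-values rest on the spread between arrays of a group, which come from pools of different mice. That fit does not use the pairing of the 2 fractions of a pool.

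All 6 members were lower in cells titled GFP− than in cells titled GFP+, in odor and in vehicle pools and in 8 of 8 pools for each gene. The fitted differences ranged from −4.40 for Fos to −0.61 for Jun in odor pools, and from −4.29 to −0.55 for the same genes in vehicle pools. Over the 6 members the median was −2.42 in odor pools and −2.63 in vehicle pools, against 0.14 and 0.13 over all features. With members below background set to their bound, the medians were −1.94 and −2.2. The test called 6 of 6 lower in both comparisons, where 9.98% of all features were called lower in odor pools and 9.82% in vehicle pools (12.2% and 7.05% were called higher). With the pool as a block 6 of 6 were called lower too, where 10.9% of all features were in odor pools and 10.4% in vehicle pools. In sorted bulk RNA, fewer cells of a type and less RNA per cell cannot be told apart.

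**Figure D1:**
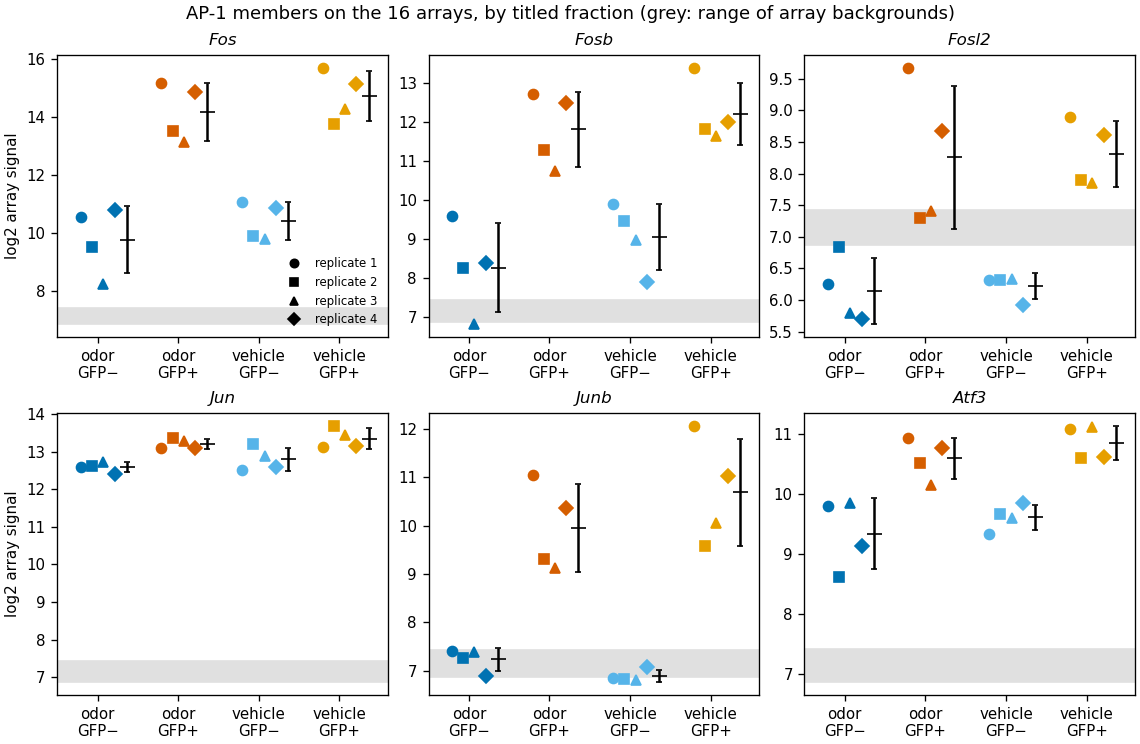
Log2 array signal of the 6 members (vertical axis, scale differing by panel) on the 16 arrays, in 4 groups along the horizontal axis, with the symbol giving the replicate number, the bar the mean ± SD of 4 arrays and the grey band the range of array backgrounds. Fos lies between 8.24 and 11.08 on the 8 arrays titled GFP− and between 13.14 and 15.69 on the 8 titled GFP+.

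Fos, the founding member of the family and the usual marker of recent neuronal activity, had the greatest fitted mean difference, though those of Junb and Fosl2 are bounds because both were near or below background in cells titled GFP−. In odor pools it was at 10.55, 9.54, 8.24 and 10.78 in cells titled GFP−, against 15.18, 13.52, 13.14 and 14.85 in cells titled GFP+. In vehicle pools it was at 11.08, 9.89, 9.81 and 10.88 in cells titled GFP−, against 15.69, 13.75, 14.26 and 15.12 in cells titled GFP+. The fractions were separate in both treatments, and Fos was above background on 16 of 16 arrays, including all those titled GFP−. The difference was −4.40 ± 0.58 (SE; limma adjusted p = 3.68e-05), or 21-fold lower, in odor pools and −4.29 ± 0.58 (adjusted p = 4.52e-05), or 19.6-fold lower, in vehicle pools. Pool by pool it stayed between −4.9 and −3.86, with an SD of 0.36 over the 8 pools, although levels differed more than that within each group. The order of the group means, from high to low, was vehicle above odor in cells titled GFP+, followed by vehicle above odor in cells titled GFP−, and the neighbours within each fraction overlapped.

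Fosb, a Fos relative known in the brain for the long-lived splice form ΔFosB, followed the same order of groups. It was at 9.59, 8.26, 6.81 and 8.37 in odor cells titled GFP− and at 12.73, 11.29, 10.74 and 12.5 in odor cells titled GFP+. In vehicle pools it was at 9.89, 9.46, 8.96 and 7.9 in cells titled GFP−, against 13.4, 11.82, 11.64 and 12.01 in cells titled GFP+. The fractions did not overlap, and 1 array, odor titled GFP− replicate 3, was below background. The difference was −3.56 ± 0.59 (SE; limma adjusted p = 0.000346) in odor pools, at least 10.6-fold with that array at its bound, and −3.16 ± 0.59 (adjusted p = 0.000965), 8.97-fold, in vehicle pools. The array summarises the gene as 1 value, so splice forms were not separated.

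Fosl2, also called Fra-2, lacks the strong activation domain of Fos. It was below background on 8 of 8 arrays titled GFP−, with 6.25, 6.84, 5.79 and 5.7 in odor pools and 6.31, 6.32, 6.34 and 5.92 in vehicle pools. In cells titled GFP+ it was at 9.67, 7.29, 7.41 and 8.67 in odor pools, 3 of them above background, and at 8.9, 7.9, 7.85 and 8.61 in vehicle pools, 4 of them above. Its level in cells titled GFP− thus has only an upper bound. The fold was at least 2.03 lower in odor pools (fitted difference −2.12 ± 0.43 SE, limma adjusted p = 0.00197) and at least 2.2 lower in vehicle pools (−2.09 ± 0.43, adjusted p = 0.0022). The pools varied widely, from −3.42 to −0.45, and the pair nearest 0 was odor replicate 2.

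Jun, the partner of the Fos proteins in the classical dimer, was above background on 16 of 16 arrays and differed least. It was at 12.6, 12.63, 12.73 and 12.41 in odor cells titled GFP−, against 13.09, 13.37, 13.28 and 13.09 in odor cells titled GFP+. In vehicle pools it was at 12.52, 13.2, 12.88 and 12.6 in cells titled GFP−, against 13.12, 13.69, 13.45 and 13.15 in cells titled GFP+. The fractions were separate in odor pools and overlapped in vehicle pools, yet within pools the difference was narrow, from −0.74 to −0.49 with an SD of 0.09. It was −0.61 ± 0.17 (SE; limma adjusted p = 0.0146), or 1.53-fold lower, in odor pools and −0.55 ± 0.17 (adjusted p = 0.0299), or 1.47-fold lower, in vehicle pools. With the pool as a block it was called in both treatments as well (limma adjusted p = 0.00254 in odor pools and 0.00475 in vehicle pools). Without the block, Jun's were the members' calls that changed with the scale and with the pool left out. Once each array was centred on its median tested feature the difference was −0.31 (adjusted p = 0.148) in odor pools and −0.15 (adjusted p = 0.459) in vehicle pools. Centred on the negative controls it was −0.42 (adjusted p = 0.0768) in odor pools, and centred on the olfactory receptor median −0.83 (adjusted p = 0.0676) in vehicle pools. It also missed the threshold in odor pools without odor replicate 2 or 4 (adjusted p = 0.067 and 0.0502) and in vehicle pools without vehicle replicate 1, 3 or 4 (adjusted p = 0.0808, 0.106 and 0.0736).

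Junb, which activates more weakly than Jun and restrains it in some settings, was dim in one fraction only. It was near or below background in cells titled GFP−, with 7.4, 7.25, 7.39 and 6.88 in odor pools and 6.85, 6.83, 6.8 and 7.07 in vehicle pools. In cells titled GFP+ it reached 11.06, 9.31, 9.12 and 10.36 in odor pools and 12.07, 9.59, 10.06 and 11.03 in vehicle pools. Of the arrays titled GFP−, 1 of 4 in odor pools and 0 of 4 in vehicle pools was above background. It was at least 6.17-fold lower in odor pools (fitted difference −2.73 ± 0.45 SE, limma adjusted p = 0.000376) and at least 11.4-fold lower in vehicle pools (−3.80 ± 0.45, adjusted p = 1.24e-05). Single pools ran from −5.22, in vehicle replicate 1, to −1.73, in odor replicate 3.

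Atf3, a stress-inducible factor that pairs with Jun proteins and often represses, was above background on 16 of 16 arrays. It was at 9.79, 8.61, 9.85 and 9.13 in odor cells titled GFP−, against 10.92, 10.51, 10.14 and 10.76 in odor cells titled GFP+. In vehicle pools it was at 9.34, 9.67, 9.59 and 9.85 in cells titled GFP−, against 11.07, 10.6, 11.11 and 10.61 in cells titled GFP+. The fractions did not overlap. The difference was −1.24 ± 0.25 in both treatments (SE; limma adjusted p = 0.00202 in odor pools and 0.00214 in vehicle pools), 2.37-fold and 2.36-fold lower. Within pools it ranged from −1.91 to −0.3, and the pair nearest 0 was odor replicate 3.

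**Figure D2:**
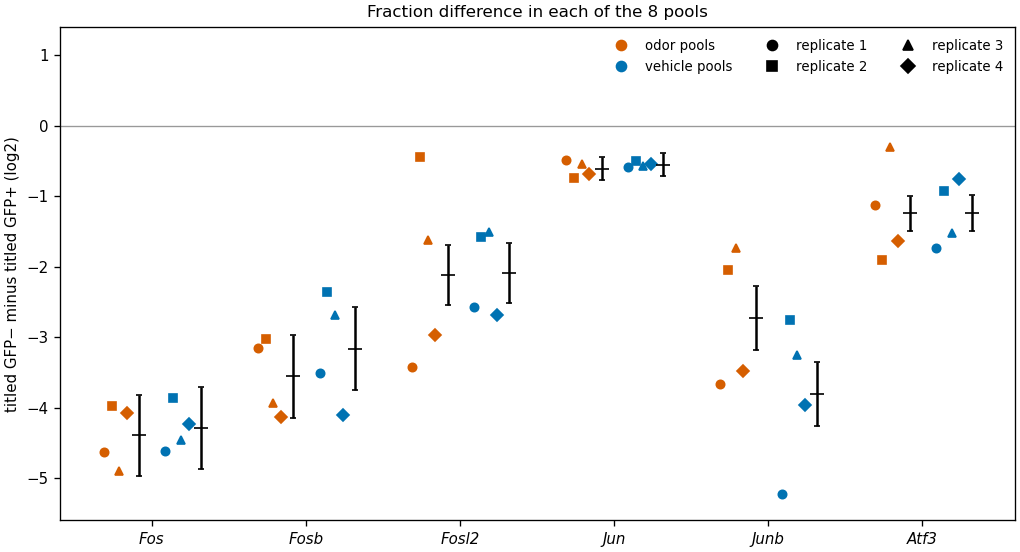
Difference in log2 signal, titled GFP− minus titled GFP+ (vertical axis), in each of the 8 pools for the 6 members (horizontal axis), odor pools in orange and vehicle pools in blue, with the bar giving the fitted difference ± SE. All points lie below 0, Fos between −4.9 and −3.86 and Jun between −0.74 and −0.49.

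Markers of several other cell types of the mucosa moved with the same contrast, though not all did. Over all features, 9.98% were called lower in odor pools and 9.82% in vehicle pools. All 11 of 11 neutrophil markers were lower in cells titled GFP− in both treatments, and the log2 of their summed signals was 8.97 to 9.98 in odor cells titled GFP−, against 18.42 to 19.47 in odor cells titled GFP+. In vehicle pools the same measure was 8.96 to 9.37 in cells titled GFP−, against 18.47 to 19.74 in cells titled GFP+. In cells titled GFP−, 10 of the 11 were below background on all 4 odor arrays and 11 of 11 on all 4 vehicle arrays. The same log2 sum of macrophage and myeloid markers was 8.95 to 10.38 in odor cells titled GFP−, against 14.66 to 16.74 in odor cells titled GFP+, and 9.14 to 9.62 in vehicle cells titled GFP−, against 15.22 to 17.04 in vehicle cells titled GFP+. In both treatments 13 of 13 macrophage and myeloid, 9 of 9 cycling-cell, 8 of 8 microvillar and ionocyte, and 3 of 3 erythroid markers were also called lower. However, 4 of the 13, 2 of the 9 and 2 of the 8 were never above background. With dim features at their bound, the macrophage and myeloid median was −0.64 in odor pools and −1.01 in vehicle pools. In the same order it was 0 and −0.14 for cycling-cell, −0.36 and −0.74 for microvillar and ionocyte, and −1.39 and −1.73 for erythroid markers. Of the sustentacular markers 5 of 8 were called lower in odor pools and 4 of 8 in vehicle pools, and of the lymphocyte markers 5 and 4 of 10. Endothelial and mesenchymal markers had 1 of 9 called lower in each treatment, with medians of 0.04 and 0.11. Of those 9, 8 were never above background. Ensheathing glia markers had 1 and 0 of 4 called lower, with 4 of 4 never above background. Bowman's gland markers had 1 of 3 called lower in each treatment, with 2 of the 3 never above background. The sustentacular log2 sum was 11.5 to 13.93 in odor cells titled GFP−, against 14 to 15.1 in odor cells titled GFP+, and 11.97 to 13.81 in vehicle cells titled GFP−, against 13.91 to 15.02 in vehicle cells titled GFP+.

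Neuronal markers were divided. Immature neuron markers had 4 of 10 called lower and 0 higher in each treatment. The share of all features called lower was 9.98% in odor pools and 9.82% in vehicle pools. Basal progenitor markers had 4 of 8 called lower in each, though 6 of the 8 were never above background. Activity-dependent neuron markers moved otherwise, and mature neuron markers did so only in part. The 5 activity-dependent genes of olfactory sensory neurons were all called higher in cells titled GFP− in both treatments. Of 13 mature neuron markers 5 were called higher in odor pools and 4 in vehicle pools, with none lower. The share of all features called higher was 12.2% in odor pools and 7.05% in vehicle pools. The log2 of the mature markers' summed signals was 20.98 to 21.12 in odor cells titled GFP−, against 20.87 to 20.97 in odor cells titled GFP+, and 21.09 to 21.16 in vehicle cells titled GFP−, against 20.96 to 21 in vehicle cells titled GFP+. Of the 13 mature markers, 12 were above background on all 4 arrays in each of the 4 groups. With the pool as a block 3 and 2 of the 13 mature neuron markers were called higher, where 14.4% and 8.5% of all features were.

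Of 8 heat shock genes, which respond to protein damage and cell stress, 0 were called by the fit without the pool and 3 were called lower in each treatment with the pool as a block. With that block 10.9% of all features were called lower in odor pools and 10.4% in vehicle pools. Hspa1a was lower in cells titled GFP− in 8 of 8 pools, by −2.71, −1.79, −2.51 and −1.28 in odor pools and by −2.14, −2.02, −2.09 and −1.08 in vehicle pools. Its blocked difference was −2.07 ± 0.25 (SE; limma adjusted p = 0.000255) in odor pools and −1.83 ± 0.25 (adjusted p = 0.000545) in vehicle pools. Hspa1b was likewise lower in 8 of 8 pools, with −2.08 ± 0.27 (adjusted p = 0.000438) and −1.73 ± 0.27 (adjusted p = 0.00137), and Dnajb1 was at −0.64 ± 0.15 (adjusted p = 0.0113) and −0.58 ± 0.15 (adjusted p = 0.0205). The part of these other cells and of the heat shock genes in the members' differences was not tested.

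The fraction difference was then compared between treatments, which asks whether odor changed how far the fractions stood apart. No member was called, nor was any of the 19572 features (0% called, 739 at an unadjusted p under 0.05, of which 0 were members). Junb was at 1.07 ± 0.64 (SE; unadjusted p = 0.115, limma adjusted p = 1), with a 95% interval from −0.29 to 2.43. Of this, 0.34 came from cells titled GFP−, where only 1 of 8 arrays was above background, so its size is not measured. For Fos it was −0.10 with an interval from −1.84 to 1.63, or from −0.68 to 0.47 with the pool as a block. For Jun it was −0.06 with an interval from −0.56 to 0.44. Fosb, Fosl2 and Atf3 were at −0.39, −0.03 and −0.01. Blocked by pool, the interval for Fosb was −1.29 to 0.51, and for Fosl2, below background in cells titled GFP−, −1.36 to 1.31.

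Odor against vehicle within each fraction addresses whether the odorants moved the genes themselves. No member was called in either fraction (limma, 0% of features called, with 805 features in cells titled GFP− and 2016 in cells titled GFP+ at an unadjusted p under 0.05, of which 0 were members). Fos in odor pools was lower than in the vehicle pool of the same replicate number in 4 of 4 numbers in each fraction. The differences were −0.53, −0.35, −1.56 and −0.11 in cells titled GFP−, with a fit of −0.64 (95% interval −1.87 to 0.59, adjusted p = 0.999). They were −0.51, −0.24, −1.12 and −0.26 in cells titled GFP+, with a fit of −0.53 (−1.76 to 0.69, adjusted p = 0.809). Number 3 had the greatest difference in both, and the odor and vehicle arrays overlapped.

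These intervals come from the fit without the replicate number. With the number as a block, the interval for Fos was −1.13 to −0.14 in cells titled GFP− (unadjusted p = 0.0162, limma adjusted p = 0.699) and −1.03 to −0.04 in cells titled GFP+ (unadjusted p = 0.0371, adjusted p = 0.322). Blocked intervals also lay below 0 for Fosb in cells titled GFP−, −1.57 to −0.03 (unadjusted p = 0.0438, adjusted p = 0.776), and for Junb in cells titled GFP+, −1.10 to −0.36 (unadjusted p = 0.0012, adjusted p = 0.174). The other 8 of the 12 spanned 0, and no member passed the adjusted threshold with the block.

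Without the block, each of the members' intervals spanned 0. Fosb was at −0.80 (95% interval −2.04 to 0.45) in cells titled GFP− and −0.40 (−1.64 to 0.84) in cells titled GFP+. Jun was at −0.20 (−0.56 to 0.15) and −0.15 (−0.50 to 0.20) in the same order, and in cells titled GFP+ it was lower with odor in 4 of 4 numbers. Junb was at 0.34 (−0.62 to 1.31) in cells titled GFP−, where it was at background, and at −0.73 (−1.69 to 0.24) in cells titled GFP+, lower with odor there in 4 of 4 numbers. Fosl2 was at −0.08 and −0.05, and Atf3 at −0.27 and −0.26. On the deposited scale, these intervals allow Jun a rise with odor of at most 0.20 log2 units. For Fosl2 they allow up to 0.85 and for Fosb up to 0.84. These limits depend on the scale, since Jun in cells titled GFP+ was itself at 0.1127 when centred on the olfactory receptor median. Centring the arrays on their negative controls changed the picture in cells titled GFP+, where the median of all features was then −0.56, against −0.03 as deposited. Under that scale 8875 features were called lower with odor, among them Jun (−0.68, adjusted p = 0.0136), Junb (−1.26, adjusted p = 0.04) and Atf3 (−0.80, adjusted p = 0.0358).

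**Figure D3:**
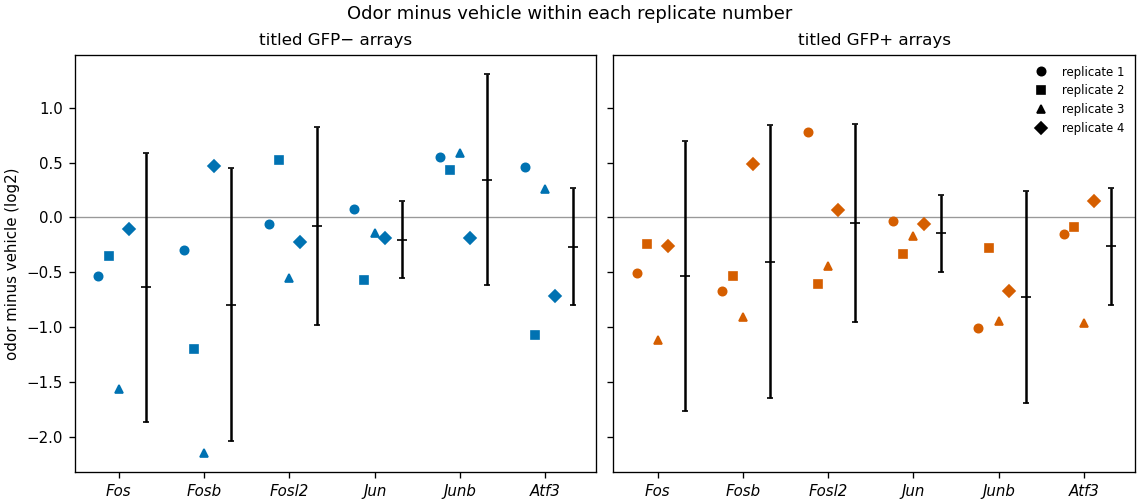
Odor minus vehicle difference in log2 signal (vertical axis) within each replicate number, for the 6 members in arrays titled GFP− (left) and titled GFP+ (right), with the bar giving the fitted difference and its 95% interval. Each interval, from the fit without the replicate number as a block, spans 0, and Fos is below 0 in 4 of 4 numbers in both panels.

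Much of the spread within groups followed the replicate number of the labels, which is shared by the 4 groups and whose meaning the labels do not give. Fos stood above its group mean in numbers 1 and 4 and below it in numbers 2 and 3 in 4 of 4 groups. The deviations were 0.66 to 1.01 in number 1, −0.95 to −0.24 in number 2, −1.53 to −0.44 in number 3 and 0.41 to 1 in number 4. The number accounted for 87.9% of the variation of Fos within groups, against a median of 33.2% over all features. For Jun it was 77.5%, and with another pattern. Jun was above its group mean in numbers 2 and 3 in 4 of 4 groups and below it in number 4 in 4 of 4, by at most 0.4. Fosb, at 67.3%, was highest in number 1 in 4 of 4 groups and below its mean in number 3 in 4 of 4. Junb, Fosl2 and Atf3 were at 48.6%, 33.9% and 23%.

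After this pattern had been seen, the 4 numbers were compared by limma's F test on the means of the 2 fractions of each of the 8 pools, with treatment as a term. It called Fos (adjusted p = 0.0225) and Junb (adjusted p = 0.0278) among 556 features, 2.84% of all, and not Fosb (0.112), Fosl2 (0.123), Jun (0.358) or Atf3 (0.515). Neither call held when each pool was left out in turn, in a test with only 3 residual degrees of freedom on all 8 pools. Over these omissions the number of features called also fell, to between 4 and 503. Fos missed the threshold when odor replicate 1 or 4, or vehicle replicate 1, 2 or 4, was left out (adjusted p up to 0.1), and Junb when any pool other than odor replicate 2 was (up to 0.138). Centred on the receptor median or on the negative controls, the test called 3707 and 1373 features, against 556 as deposited. On those scales Fosb (adjusted p = 5.65e-12 and 5.55e-05) and Fosl2 (0.000298 and 0.0159) were called as well.

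Other genes moved with the number too. Hspa1b and Hspa1a, inducible heat shock proteins, ranked 1 and 2 of all features (adjusted p = 0.000103 and 0.000313), but with number 4 lowest, Hspa1a deviating from its group means by −3.82 to −2.67 there and by 1.15 to 2 in numbers 2 and 3. The log2 of the summed sustentacular markers was above the group mean in numbers 1 and 4 and below it in numbers 2 and 3 in 4 of 4 groups, as Fos was, with deviations of −1.32 to 1.11. That of the neutrophil markers was above it in number 1 in 4 of 4 groups but lowest in number 4 in both groups titled GFP+. Whether any of these has a part in the members' pattern was not tested.

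**Figure D4:**
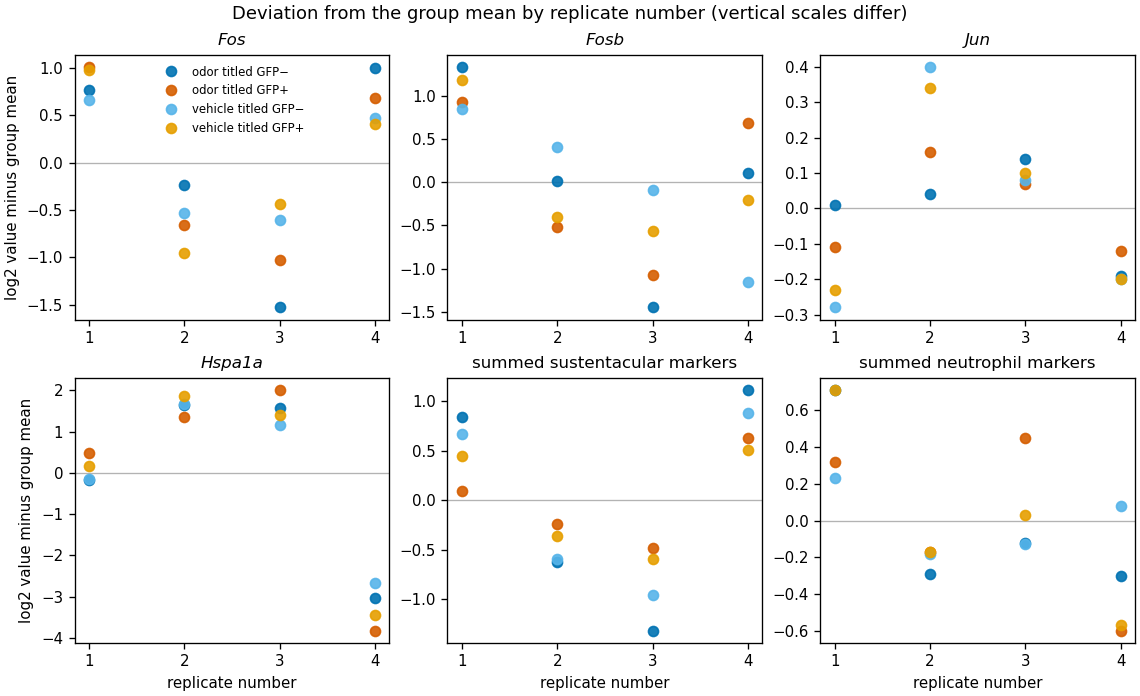
Log2 value minus group mean (vertical axis, scale differing by panel) against the replicate number of the labels (horizontal axis), for Fos, Fosb, Jun, Hspa1a and the summed sustentacular and neutrophil markers, with 1 point per array or sum and colours for the 4 groups. Fos and the sustentacular sum are above 0 in numbers 1 and 4 in 4 of 4 groups, and Hspa1a lies between −3.82 and −2.67 in number 4.

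Of 7 other AP-1 family genes measured, the test called 0 in either treatment, where 22.2% of all features were called in one direction or the other in odor pools and 16.9% in vehicle pools. Jund, the Jun protein expressed without induction, was above background on 16 of 16 arrays with a difference of −0.02 ± 0.17 (SE) in odor pools and 0.08 ± 0.17 in vehicle pools. Fosl1 was at −0.34 ± 0.27 and −0.41 ± 0.27, and Batf2 and Batf3, which pair with Jun proteins, were below background on all arrays. Centring each array on its median tested feature led to calls for 2 of the 7 in odor pools and 4 in vehicle pools, all higher, on a scale where 49.3% and 63.6% of all features were called higher. With the pool as a block 0 and 1 of the 7 were called.

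Of 38 features for factors and kinases related to the members or their induction, 7 were called in odor pools and 4 in vehicle pools, 18.4% and 10.5% against 22.2% and 16.9% of all features. Of 10 ATF and CREB features, 1 was called in odor pools, Creb3, higher by 0.39 ± 0.13 (SE; limma adjusted p = 0.0454), and 0 in vehicle pools. With the pool as a block, 1 was called in odor pools, and it was lower. Of 6 Maf family genes, all below background on every array, 2 were called higher in odor pools, Maff and Nrl, and 0 in vehicle pools. Of 10 upstream factors such as Srf, Elk1 and the Mef2 genes, 1 was called in each treatment, Mef2c, lower by at least 1.06-fold in odor pools and at least 1.6-fold in vehicle pools. Of 12 kinases, Map3k1 and Mapk14 were called lower in both treatments, Mapk8 higher in odor pools and Camk4, never above background, higher in vehicle pools. Map3k1 was below background on all arrays titled GFP−. It was lower by at least 1.04-fold in odor pools, and its fold in vehicle pools had no bound. Mapk14, the p38 kinase, was at −0.79 ± 0.24 (adjusted p = 0.0271) and −0.73 ± 0.24 (adjusted p = 0.0471). After centring each array on its median tested feature, 6 ATF and CREB features and 5 kinases in odor pools, and 5 and 7 in vehicle pools, were called higher, on a scale where 49.3% and 63.6% of all features were.

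Many other immediate-early genes were lower as well. Of 37 features for 35 genes, 22 were called lower in odor pools and 21 in vehicle pools, and none higher, although centring each array on its median tested feature led to 1 and 3 called higher, and the pool as a block to 1 in odor pools. Over all features, 9.98% were called lower in odor pools and 9.82% in vehicle pools. Of this list's features called lower, 4 in odor pools and 5 in vehicle pools were never above background. The list's median was −1.01 and −0.99, and −0.17 and −0.12 with features below background at their bound. Egr2, a zinc finger factor induced with Fos, was at least 35.4-fold lower in odor pools and at least 50.9-fold lower in vehicle pools. Zfp36, which destabilises short-lived messages including Fos, was at least 22-fold lower in odor pools and at least 22.4-fold in vehicle pools, where 1 of 4 arrays titled GFP− was above background. Btg2 was at least 28.3-fold and at least 23.6-fold lower, and Plk2 at least 11-fold and at least 9.44-fold. Ier3 was at least 7.84-fold and at least 13.2-fold lower. Egr1 was at least 36.7-fold lower in odor pools, and its difference in vehicle pools was −4.63 ± 0.45 (SE; limma adjusted p = 1.24e-06). Arc, Npas4 and Egr4, which mark synaptic activity in brain neurons, were not called and were below background on all arrays. Ppp1r15a, Homer1, Dusp5 and Per1 were above background on 16 of 16 arrays and differed little. Ppp1r15a averaged 9.21 in odor cells titled GFP−, against 8.65 titled GFP+, and 9.43 against 9.03 in vehicle pools. In the same order Homer1 averaged 10.27 against 10.23 and 10.13 against 10.02, and neither gene was called. Dusp5 averaged 11.42 against 11.59 and 11.53 against 11.65, and Per1 9.65 against 9.81 and 9.73 against 9.8.

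Genes known as AP-1 targets elsewhere were mixed. Of 11 measured, 5 were called lower and 1 higher in odor pools, and 6 lower and 2 higher in vehicle pools, and 6 were below background on all arrays. Over all features, 9.98% were called lower and 12.2% higher in odor pools, and 9.82% and 7.05% in vehicle pools. Mmp9, a gelatinase stored in neutrophil granules, was at least 45.2-fold lower in odor pools and at least 52.6-fold lower in vehicle pools. Vim, an intermediate filament gene, was at least 43.8-fold and at least 39-fold lower, and Cd44 at least 15-fold and at least 13.6-fold. Plaur was at least 4-fold and at least 6.05-fold lower. Il6 was called lower and Mmp3 higher in both treatments, neither ever above background, and Hmox1 was higher by 0.47 ± 0.15 (SE; limma adjusted p = 0.0438) in vehicle pools and missed the threshold in odor pools (adjusted p = 0.0509).

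**Figure D5:**
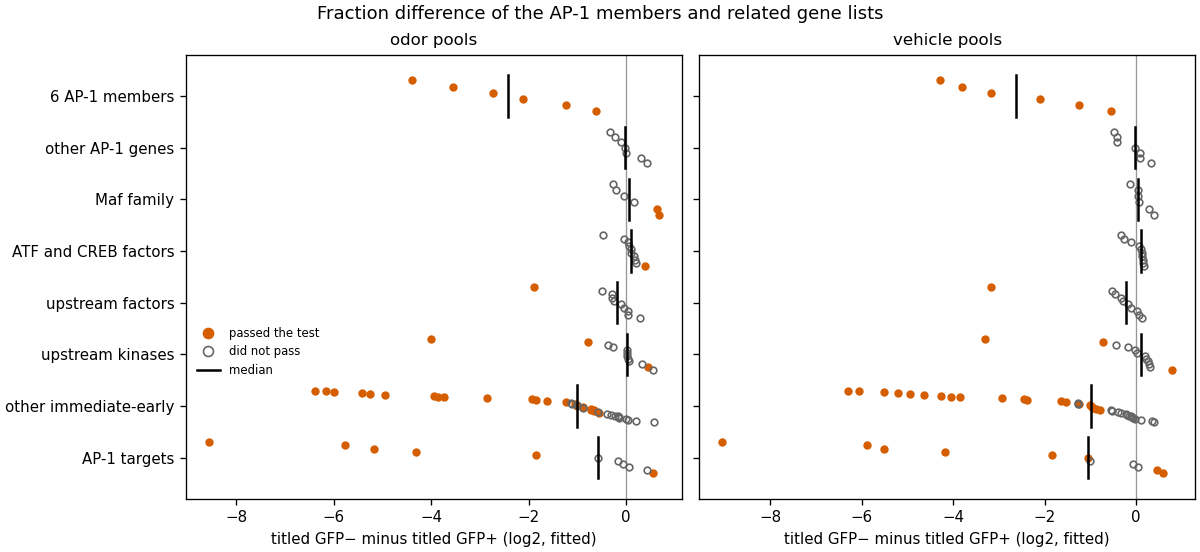
Fitted difference in log2 signal, titled GFP− minus titled GFP+ (horizontal axis), of each feature in the 6 members and 7 related gene lists (vertical axis), in odor pools (left) and vehicle pools (right), with filled points past the threshold and a bar at the median. The members' medians are −2.42 and −2.63, and 0 of 7 other AP-1 genes are past the threshold in either panel.

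The members were compared among themselves by how they varied over the 16 arrays, measured as the root-mean-square distance between profiles each centred on its own mean. The closest of the 15 pairs were Jun and Atf3 (0.51), Fosl2 and Junb (0.75), and then Fos and Fosb and Fosl2 and Atf3 (0.78 each). Fos and Jun, the partners of the classical dimer, were the farthest apart (2.13). The median distance of all features to the members' mean profile was 1.42, and Fosl2 (0.4) was nearest to it and Jun (1.09) and Fos (1.08) the farthest of the 6. Each member is itself part of that mean, and Fos ranked only 1878 and Jun 1997 among all features by closeness to it. Profiles were not scaled, so these distances also reflect how far each gene varied. The 8 features nearest to the mean profile were Ptpn22 (0.31), Armcx3 (0.35), Pde3b (0.36), Elovl6 (0.36), Elovl5 (0.37), Sgms1 (0.38), Svopl (0.38) and Tagap (0.39). The nearest single features were Egr1 for Fos (0.56), Zfp36l1 for Fosb (0.69), Sgms1 for Fosl2 (0.37), Atp11b for Jun (0.21), Cd14 for Junb (0.35) and Ptger4 for Atf3 (0.28).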

How the data were processed

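RNA of 16 sorted samples was measured on Clariom S arrays, which have 1 colour. The authors deposited log2 signals made with Affymetrix Expression Console, per the submitters' processing notes. The background correction, normalization and genome build are not given in the sources used here, and arrays were compared on their deposited scale. Signals were read from a table of 28846 entries per array. The 19572 entries with 1 gene symbol were tested, and 9274 control or unnamed entries were not. Samples were grouped by title. The number of arrays limits the precision.

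A limma model (limma 3.58.1, R 4.3.3) with 1 mean per group was fitted to all 16 arrays, with 12 residual degrees of freedom. The 5 comparisons were the fraction difference in each treatment, the difference between those, and odor against vehicle in each fraction. In simulated data with known changes it recovered 80% of 50 features changed by 1 log2 unit and 96% of those changed by 2 in the vehicle fraction comparison (19572 features). "At least" folds set the brighter group's mean against, on each array, the higher of background and the dim feature's own signal. The 6 members, the gene lists and the rule for named genes (up to 5 called genes of a list by size, and the 8 features nearest to the members' mean profile) were chosen with earlier results of these data known.

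The fractions of a pool come from the same mice, and deviations from group means correlated at 0.096 to 0.337 within pools, against at most 0.088 between pools. Odor and vehicle arrays of the same number and fraction correlated at 0.147 to 0.547 in 8 of 8 cases, against −0.497 to 0.2 for different numbers, of which 3 of 24 were above 0.1. The number was treated as pairing them, although the ranges overlap. Alternatives were 4 other scales, a filter on dim features, an intensity trend, a block for pool or number, each pool left out in turn and a background level from the negative controls.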

Additional observations from a re-analysis of the deposited data

Results flagged for a closer look

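For the 6 members, 24 groups of 4 arrays and 12 sets of 4 pool differences were tested for a value far from the others, and 1 of these 36 had one. Fosl2 was at 5.92 in vehicle cells titled GFP− replicate 4, against 6.31, 6.32 and 6.34 on the other arrays of that group, a gap of 0.936 of the group's range, which is above Dixon's critical value for 4 samples. All 4 values were below background, and chance alone marks about 1 group in 20.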

How the results depend on the processing

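Fos, Fosb, Fosl2, Junb and Atf3 stayed lower in cells titled GFP− and past the threshold in both treatments under the 4 other scales, the intensity trend, the pool block and all 8 omissions of a pool. The filter on dim features bears on Fos, Fosb and Atf3 alone, since Fosl2 and Junb passed it through cells titled GFP+. Jun kept its direction and lost its call in the settings given beside it, with −0.6523 to −0.5696 in odor pools and −0.5715 to −0.5394 in vehicle pools over the omissions. The replicate block by pool or number changed no member's call. Its effect on other gene lists, added after seeing the data, stands beside those lists in the report. With the pool as block Fos was at −4.40 ± 0.18 in odor pools and −4.29 ± 0.18 in vehicle pools (SE). With the number as block 1 feature, no member, was called in each odor comparison, against 0 without it, and Junb in cells titled GFP+ was at −0.73 ± 0.17 (limma adjusted p = 0.174).

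Centred on the negative controls, 3 members were called lower with odor in cells titled GFP+, against 0 as deposited. On that scale the interactions of Fos, Fosl2, Jun and Atf3 changed sign, to 0.2773, 0.3562, 0.3231 and 0.3758, none called. Odor minus vehicle in cells titled GFP+ changed sign for Fosl2, to 0.0662 with quantile normalization, 0.0531 centred on the tested median and 0.2072 centred on the receptor median, and for Jun, to 0.1127 on the last. Without single pools the sign also changed for uncalled values. The interaction ranged from −0.244 to 0.0623 for Fos, −0.5799 to 0.4091 for Fosl2 and −0.3211 to 0.215 for Atf3. Odor minus vehicle for Fosl2 ranged from −0.3077 to 0.0715 in cells titled GFP− and from −0.5225 to 0.2722 in cells titled GFP+. The cause was not tested in any of these.

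Over all features 2385 were called higher and 1953 lower in odor pools, and 1380 and 1922 in vehicle pools. The split was 2930 and 1956, and 2643 and 1863, with quantile normalization; 9658 and 1534, and 12456 and 1529, centred on the tested median; 343 and 2440, and 342 and 1829, on the receptor median; 3335 and 1420, and 412 and 2112, on the negative controls. Over all settings and omissions the calls ranged from 0 to 4 for the other AP-1 genes, 0 to 3 for the Maf family, 0 to 6 for ATF and CREB features, 1 to 4 for upstream factors and 1 to 8 for kinases. Leaving out odor replicate 1 left 2689 calls in odor pools, and leaving out vehicle replicate 1 left 2138 in vehicle pools. The F test over replicate numbers called 4 to 503 features over the omissions of a pool, 3707 on the receptor median and 1373 on the negative controls, against 556. With the background taken from negative controls, 9.14 to 10.9, Fosl2 was above it on no array, and Fos in cells titled GFP− on 2 of 4 odor arrays and 4 of 4 vehicle arrays. In the same cells Atf3 was above it on 1 of 4 arrays in each treatment and Junb on 0 of 4 in each. Fosb was above it there on 0 of 4 odor arrays and 1 of 4 vehicle arrays.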
